A study of Mus musculus with 4 samples.

Results

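Mitosis genes were examined in molar tooth mesenchyme of mouse embryos at embryonic day 13.5 as a list of 41 genes, chosen by symbol for their known roles in mitosis, of 22072 gene symbols in the deposited tables. All 41 were found, and all 41 were among the 10502 genes tested, those with a mean of at least 1 FPKM (fragments mapped per transcript, scaled for transcript length and for library depth) over the 4 libraries. The choice of genes used no measured value of its own, but it was made with earlier results of these data known. The samples were laser-captured molar mesenchyme, read by RNA sequencing with 1 library per combination of genotype and jaw. The mutant libraries came from Bmp4f/f;Wnt1Cre embryos, in which both alleles of the signalling ligand Bmp4 are floxed and the Wnt1Cre transgene is active in the neural crest, the source of tooth mesenchyme. The control libraries came from Bmp4f/+ embryos, which carry 1 floxed and 1 unmodified allele and whose label names no Cre, so the transgene and the second floxed allele differ together. All 4 libraries are labelled as of mixed background, the lower molar is called mandibular and the upper molar maxillary here, and material was pooled before RNA extraction from 3 control and mutant pairs according to the series text. No library had a replicate of its own genotype and jaw.

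Mitosis is driven by cyclin-dependent kinase Cdk1 bound to A and B type cyclins. Polo and Aurora kinases, the spindle, the kinetochores and the condensin complexes then act in turn, until Cdc20 and the anaphase-promoting complex (APC/C), a ubiquitin ligase, destroy cyclin B. Most of these genes are transcribed in late S phase, G2 and M, under the MuvB complex with Mybl2 and Foxm1, and are repressed in resting cells by MuvB within the DREAM complex. Their mRNA in a tissue is therefore widely used as a measure of how many cells are dividing, and at this stage the tooth bud is a growing structure whose mesenchyme condenses around the epithelium. In captured tissue, fewer dividing cells and less of these mRNAs per dividing cell cannot be told apart.

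The libraries held between 4820000 and 5550000 reads on annotated transcripts, estimated from the deposited coverage, and single mitosis genes were covered by between 84.9 reads (Spc25 in the mutant mandibular library) and 8535 reads (Mki67 in the control maxillary library). Bmp4 itself had 4.90 and 4.75 FPKM in the mutant mandibular and maxillary libraries, against 27.2 and 24.8 FPKM in the control mandibular and maxillary libraries. Markers of dental mesenchyme summed to 666 and 770.1 FPKM in the mutant mandibular and maxillary libraries and to 675 and 749 FPKM in the controls, with Msx1 between 98.4 and 150 FPKM and Alx1 at or under 0.443 FPKM. Single markers differed from control in both directions on the scale of log2(FPKM + 1). In the mandibular and maxillary molars Runx2 differed by -0.62 and -0.64, and Pax9 by 0.35 and 0.38. Of the 10 markers tested, 6 were below control in the mandibular and 4 in the maxillary molar, against 58.3% and 46.8% of all genes. Rescaling all genes by median ratios shifted single libraries by between -0.05 and 0.04 on the log2 scale.

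The mitosis genes were expressed below the control level in the mutant mandibular molar, all 41 of them, and to a smaller extent in the mutant maxillary molar, 38 of 41. Their FPKM summed to 535 in the mutant mandibular library and 665 in the mutant maxillary library, against 751 in the control mandibular and 764 in the control maxillary library. The sum in the mutant was thus 71.2% of the control in the mandibular molar and 87.1% of the control in the maxillary molar. On the scale used for single genes, the difference of log2(FPKM + 1) between mutant and control, the median over the 41 genes was -0.45 in the mandibular molar and -0.16 in the maxillary molar. Over all 10502 genes the median difference was -0.05 in the mandibular molar and 0.02 in the maxillary molar. Of all genes, 58.3% were below 0 in the mandibular and 46.8% in the maxillary molar. Adding 1 to FPKM shrinks the differences of the weakest members most.

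The differences were modest in size. None of the 41 genes reached 2-fold in either jaw. Of all genes, 0.619% were at least 2-fold lower and 0.476% higher in the mandibular molar, and 0.59% lower and 0.419% higher in the maxillary molar. A smaller size was therefore used to count genes, a difference of at least 0.32 on the log2 scale. In the mandibular molar 33 of 41 were below control by that much, and 11% of all genes were. In the maxillary molar 3 of 41 passed that size, Mki67, Cenpe and Nusap1, and 7.02% of all genes did. No mitosis gene was above control by 0.32 in either jaw, where 8.02% of all genes were in the mandibular and 10% in the maxillary molar. The middle of the list lay between -0.55 and -0.37 in the mandibular molar and between -0.22 and -0.12 in the maxillary molar (lower and upper quartiles over the 41 genes). Counting error alone gave the difference of the median gene a standard error of 0.09 in the mandibular and 0.08 in the maxillary molar, computed from approximate reads that amplification makes less than independent.

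**Figure D1:**
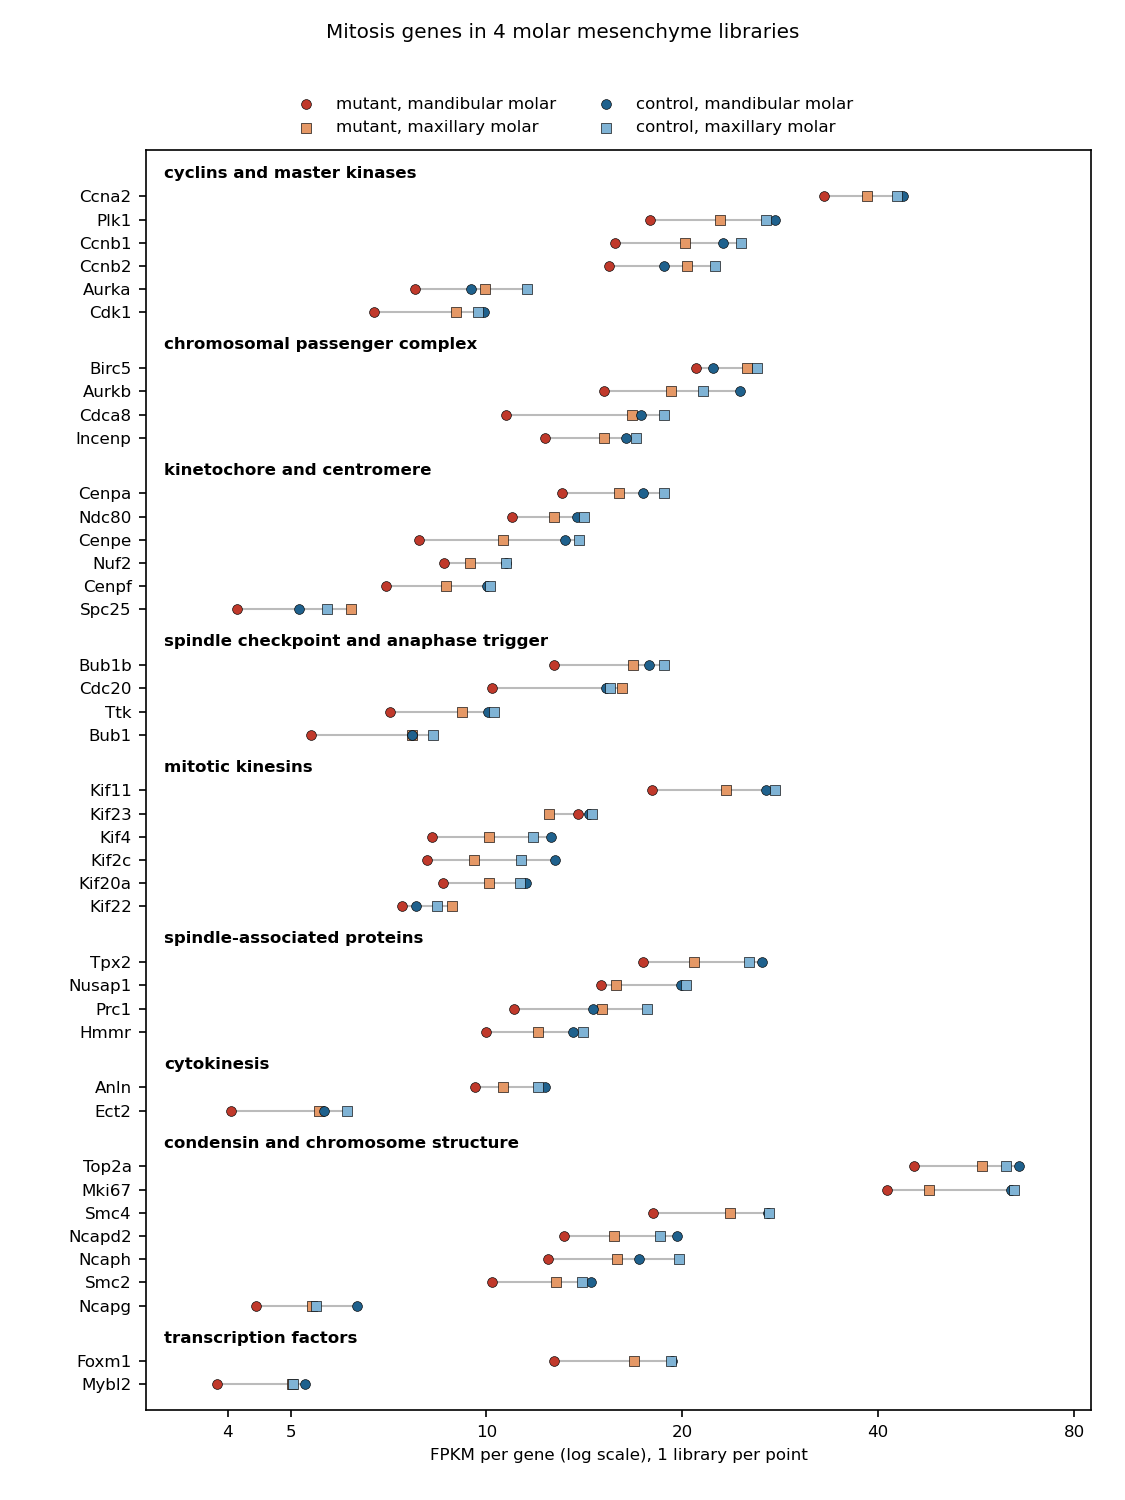
FPKM of the 41 mitosis genes in each of the 4 libraries, grouped by role and ordered by mean FPKM within a role; the x axis is logarithmic, each point is 1 library and the grey line spans the 4 libraries. The mutant mandibular library (dark red circles) is the lowest point for 40 of the 41 genes, and the exception is Kif23.

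The mutant mandibular library was the lowest of the 4 for 40 of the 41 genes, and it was the lowest for 38.3% of all genes tested. For 34 of 41 genes both mutant libraries lay below both control libraries, which was so for 23.1% of all genes. The order among those 34 was always mutant mandibular, mutant maxillary and then the controls, apart from Kif23, whose lowest value was in the mutant maxillary library. The highest library was the control maxillary for 22 genes, the control mandibular for 16 and the mutant maxillary for 3. For 40 of 41 genes the difference between mutant and control was more negative in the mandibular than in the maxillary molar, as it was for 60.3% of all genes. With 1 library per genotype and jaw this difference between jaws was not tested.

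Over both jaws together, limma, a linear model fitted to all 10502 genes with genotype and jaw as terms, called 0 of the 41 mitosis genes for genotype at a Benjamini-Hochberg adjusted p under 0.05, and it called 0.457% of all genes lower and 0.343% higher in the mutant. Genotype coefficients were negative for 40 of 41 mitosis genes, with a median of -0.30, and adjusted p-values ran between 0.12 and 0.993. At an unadjusted p under 0.05, 24 of the 41 were lower in the mutant and 0 were higher, and 6.51% of all genes were lower and 6.68% higher by that rule. Leaving out 1 library, in fits without a term for jaw, kept most genotype coefficients negative. The number negative was 41 of 41 without the mutant maxillary library and 37 without the mutant mandibular. It was 39 without the control maxillary and 41 without the control mandibular library. Each of these fits leaves 1 library of a genotype, so the sign alone is given here. With all 4 libraries, the count at an unadjusted p under 0.05 was 4 without a filter on low values. It was 15 with the strongest transcript of each gene alone, 16 without a term for jaw and 19 without the model's intensity trend. It was 23 with a pseudocount of 0.1, 26 after rescaling and 26 with transcripts of at least 0.3 kb and status OK. At a mean of at least 5 FPKM it was 29 of 40. The share of all genes at that threshold is not given for these settings. The fit has 1 residual degree of freedom, the disagreement of the genotype effect between jaws, and 5.77 prior degrees of freedom taken from other genes. Its p-values hold no spread between embryos or between pools, and the disagreement between jaws enters each gene's error.

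**Figure D2:**
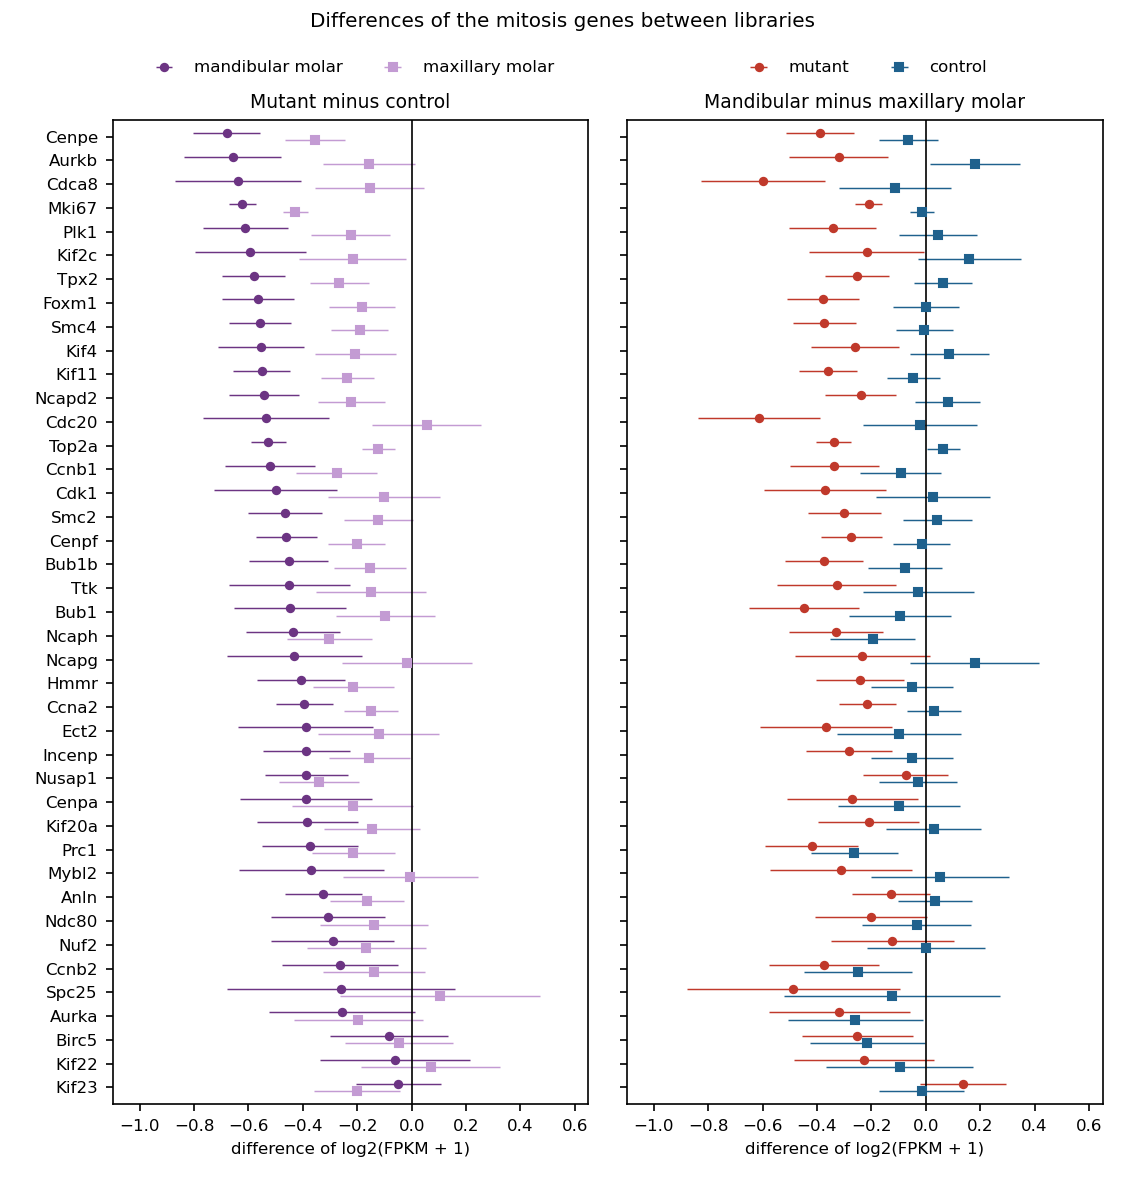
Differences of log2(FPKM + 1) for each mitosis gene, mutant minus control in each jaw (left) and mandibular minus maxillary molar in each genotype (right); bars are 1.96 approximate counting standard errors and cover counting error only. Genes are ordered by the difference in the mandibular molar, between -0.68 for Cenpe and -0.05 for Kif23, and the control points on the right lie around 0.

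The same libraries were then compared between jaws. In the mutants the mandibular molar was below the maxillary molar for 40 of 41 mitosis genes, with a median difference of -0.31, 18 of 41 were lower by at least 0.32 and 0 higher by as much. Among all genes 63.3% were below 0, 12.9% were lower and 6.45% higher by that much, and the median was -0.07. In the controls the mandibular molar was below the maxillary for 25 of 41, with a median of -0.02, and 0 of 41 differed by 0.32, against 50.8% below 0, 7.08% lower and 6.09% higher by that much among all genes. The control jaws thus differed little in these genes, with Aurka, Prc1 and Ccnb2 the lowest in the mandibular molar (-0.26, -0.26 and -0.25) and Aurkb and Ncapg the highest (0.18 each). limma called 0 of 41 for jaw, where 0.333% of all genes were called lower and 0.39% higher in the mandibular molar. At an unadjusted p under 0.05, 5 of 41 were lower and 0 higher, against 6.12% and 4.11% of all genes. With jaw as the sole term and all libraries kept, 0 of 41 had an unadjusted p under 0.05. Leaving out a library, in fits without a term for genotype, leaves a jaw with no replicate, so the sign alone is given. The jaw with the missing library then has no library of that genotype, so genotype is mixed into the coefficient for jaw. Without the mutant mandibular library 11 of 41 coefficients for jaw were negative, against 40 of 41 in the main fit. The number negative was 41 without the mutant maxillary, 31 without the control maxillary and 40 without the control mandibular library. The comparison of jaws in mutants and that of genotypes in the mandibular molar share the mutant mandibular library, so their values are not separate evidence.

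The promoters of the mitosis genes are shown because the members differed in one direction and because MuvB binds a known element, the cell cycle genes homology region (CHR), usually close to the start and downstream of CCAAT boxes bound by NF-Y. RefSeq promoters on GRCm38.p6 were present for 34 of the 41 genes. The other 7, which were Smc4, Foxm1, Aurkb, Tpx2, Incenp, Ccna2 and Kif20a, were not analysed here. The 250 bases upstream of the start were searched on both strands. The CHR, searched as TTTGAA, was found for 13 of 34 genes (38.2%) and for 18.3% of all 27025 genes with a promoter in that table. A CCAAT box, searched as CCAAT, was found for 26 of 34 (76.5%) and for 37.5% of all genes, and 18 of 34 had at least 2 such boxes, against 11.5% of all. Both elements were present for 12 of 34, against 6.45% of all. The shares among genes tested with a promoter were 12.3% for the CHR and 41.2% for the CCAAT box. The letters were also frequent in related lists, with a CHR for 34.4% of the other mitotic genes and 14.3% of the DNA replication genes, and a CCAAT box for 55.7% and 64.3% of the same lists. The palindromic CHR variants TTCGAA and TTTAAA were found for 2 and 6 of 34 genes and a forkhead core, searched as GTAAACA, for 2. An E2F site was found for 6 of 34 (17.6%), for 7.68% of all genes and for 15.4% of genes tested, so the share was close to that of expressed genes. It was found for 50% of the DNA replication genes. Its letters were TTCCCGC in the first form, TTGGCGC in another and TTCGCGC in the last. In all genes the variants stood at 1.55% for TTCGAA and 13.7% for TTTAAA, and the forkhead core at 3.54%. TTGGCGC overlaps a CCAAT box on the other strand where its complement is followed by T, as in Ccnb1. Matches are descriptions of letters, not of binding. Shown here are 7 promoters, as the last 150 bases before the start (the first of 2 listed for Ect2). They belong to genes given below with FPKM in every library that have both elements in these 150 bases. Prc1, Smc2 and Ncapd2 also have both there and are not shown. The letters run 5′ to 3′, with CHR and CCAAT matches on either strand in capitals.
Cdk1: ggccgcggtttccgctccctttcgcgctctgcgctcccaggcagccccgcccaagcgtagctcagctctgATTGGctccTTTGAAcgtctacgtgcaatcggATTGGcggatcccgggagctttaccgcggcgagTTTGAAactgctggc
Cdc20: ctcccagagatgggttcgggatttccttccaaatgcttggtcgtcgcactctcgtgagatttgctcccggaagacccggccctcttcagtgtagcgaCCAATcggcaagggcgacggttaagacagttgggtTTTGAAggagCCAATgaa
Kif11: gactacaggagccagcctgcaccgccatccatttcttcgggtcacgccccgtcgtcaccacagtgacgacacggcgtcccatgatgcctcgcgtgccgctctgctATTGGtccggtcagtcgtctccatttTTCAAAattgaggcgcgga
Top2a: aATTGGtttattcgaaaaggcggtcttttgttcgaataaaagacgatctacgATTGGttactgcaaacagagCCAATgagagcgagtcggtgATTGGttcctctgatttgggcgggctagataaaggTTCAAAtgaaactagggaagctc
Mki67: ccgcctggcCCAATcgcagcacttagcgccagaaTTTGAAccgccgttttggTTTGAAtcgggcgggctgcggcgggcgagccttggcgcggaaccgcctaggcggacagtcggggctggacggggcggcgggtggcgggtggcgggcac
Kif22: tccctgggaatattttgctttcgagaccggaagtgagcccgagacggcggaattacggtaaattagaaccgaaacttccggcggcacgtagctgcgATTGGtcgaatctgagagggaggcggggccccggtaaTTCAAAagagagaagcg
Ect2: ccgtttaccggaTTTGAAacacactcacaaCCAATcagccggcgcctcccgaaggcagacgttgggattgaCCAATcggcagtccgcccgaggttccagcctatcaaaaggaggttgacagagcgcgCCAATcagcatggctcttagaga
The windows are chr10:69352913-69353062 on the minus strand for Cdk1, chr4:118437344-118437493 on the minus strand for Cdc20, chr19:37376232-37376381 on the plus strand for Kif11, chr11:99024190-99024339 on the minus strand for Top2a, chr7:135716380-135716529 on the minus strand for Mki67, chr7:127042421-127042570 on the minus strand for Kif22 and chr3:27153855-27154004 on the minus strand for Ect2. The CHR nearest to the start begins 15 bases before it in Cdk1, 18 in Cdc20, 19 in Kif11, 23 in Top2a and 17 in Kif22, 98 bases before it in Mki67 and 138 in Ect2, where it lies upstream of all 3 CCAAT boxes. Over all member promoters the 18 CHR matches began at a median of 100.5 bases before the start (between 15 and 215), and 7 of 34 genes (20.6%) had one within 60 bases, against 3.75% of all genes. The 18 matches count the CHR of Ect2 in each of its 2 overlapping promoters, at 138 and 114 bases. Kif22, with a CHR near its start, had one of the smallest differences between mutant and control.

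Genes with and without the letters had medians below 0 in both jaws. In the mandibular molar the median difference between mutant and control was -0.50 for the 13 genes with a CHR and -0.41 for the 21 without, and in the maxillary molar it was -0.12 with and -0.20 without. Those without include Ccnb1, Plk1, Cenpa, Cenpf and Birc5, which have the variant TTTAAA, and Bub1b, which has TTCGAA. For the CCAAT box the medians in the mandibular molar were -0.46 for the 26 genes with it and -0.35 for the 8 without. In the maxillary molar they were -0.18 with it and -0.17 without. These medians are given with no test.

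**Figure D3:**
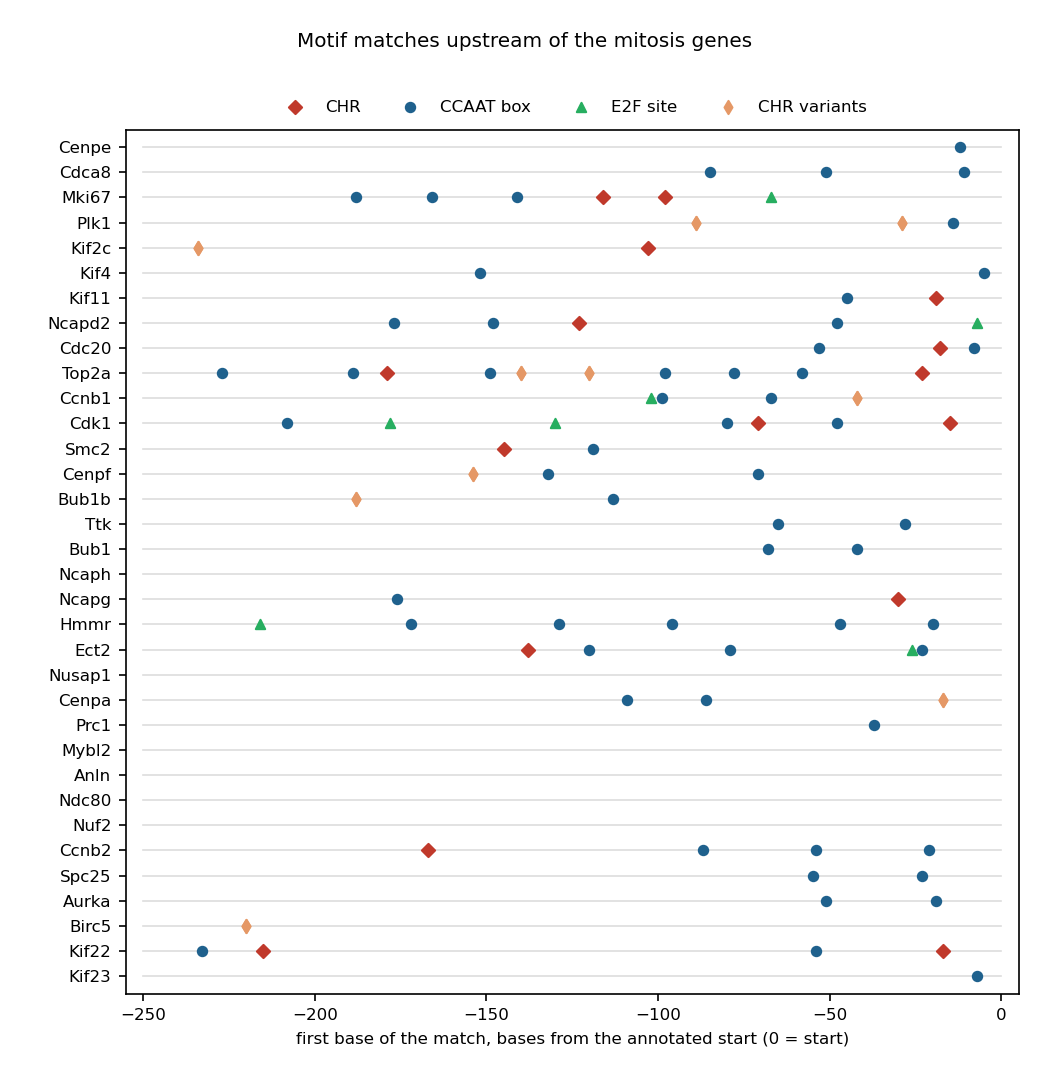
Position of motif matches in the 250 bases upstream of 34 mitosis genes (1 promoter per gene), with genes ordered from the most negative difference in the mandibular molar at the top; the x axis is the distance of the first base of the match from the annotated start. CHR and CCAAT matches occur from top to bottom of the order, and Kif22, near the bottom, has a CHR 17 bases before its start. The CHR of Prc1 lies in the promoter of that gene that is not drawn.

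Cyclins and the kinases that start mitosis were below control in both jaws for all 6 members, with medians of -0.45 in the mandibular and -0.17 in the maxillary molar. Ccna2, the A type cyclin of S and G2 phase (chromosome 3, 36463787 to 36470918, mm9), was the strongest of them, at 33.0 and 38.5 FPKM in the mutant mandibular and maxillary libraries and 43.7 and 42.8 FPKM in the controls in the same order of jaws. Ccnb1, the main mitotic cyclin (chromosome 13, 101548694 to 101556441), had 15.8 and 20.2 FPKM in the mutants and 23.1 and 24.6 FPKM in the controls. Its catalytic partner Cdk1 (chromosome 10, 68799383 to 68815660) had 6.72 and 8.98 FPKM in the mutants and 9.91 and 9.71 FPKM in the controls, so that the control libraries were close together and the mutant mandibular library stood farthest below them. Plk1, the polo kinase of mitotic entry and spindle assembly, had 17.8 and 22.9 FPKM in the mutants, against 27.8 and 26.9 FPKM in the controls, a difference of -0.61 in the mandibular and -0.22 in the maxillary molar. Aurka, the centrosomal Aurora kinase, had 7.77 and 9.93 FPKM in the mutants and 9.47 and 11.5 FPKM in the controls, so that its mutant maxillary value lay above its control mandibular value. The remaining member, Ccnb2, another B type cyclin, overlapped between genotypes in the same way. limma gave genotype coefficients of -0.40 ± 0.11 for Ccnb1 and -0.42 ± 0.13 for Plk1 (log2, SE, adjusted p = 0.223 and 0.256, 2 libraries per genotype).

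The chromosomal passenger complex corrects faulty attachments of chromosomes to the spindle and later acts in cytokinesis. Its 4 subunits did not differ from control by the same amount. The kinase Aurkb had 15.2 and 19.2 FPKM in the mutant mandibular and maxillary libraries and 24.5 and 21.5 FPKM in the controls. Cdca8 (borealin) had 10.7 and 16.7 FPKM in the mutants and 17.2 and 18.7 FPKM in the controls, so the mutant mandibular library stood apart from the other 3. In the mandibular molar the differences were -0.66 for Aurkb, -0.64 for Cdca8 and -0.39 for the scaffold Incenp. Birc5 (survivin), which binds the same complex, differed by -0.08 there and by -0.05 in the maxillary molar, with 21.0 and 25.2 FPKM in the mutants and 22.3 and 26.0 FPKM in the controls. For Birc5 the jaw separated the libraries and the genotype did not, since both mandibular values were below both maxillary values. limma gave -0.41 ± 0.14 for Aurkb and -0.07 ± 0.10 for Birc5 (SE, adjusted p = 0.308 and 0.834).

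Among kinetochore and centromere genes, 6 of 6 were below control in the mandibular and 5 of 6 in the maxillary molar, with medians of -0.35 and -0.18. Cenpe, a kinesin that carries chromosomes to the spindle equator (chromosome 3, 134875527 to 134936504, mm9), had the most negative mandibular difference of all 41 genes. It had 7.87 and 10.6 FPKM in the mutant mandibular and maxillary libraries and 13.2 and 13.9 FPKM in the controls, which put the mutant at 59.6% and 76.6% of the control. limma gave -0.52 ± 0.12 for Cenpe (SE, adjusted p = 0.158). Cenpa, the centromeric histone H3 variant, had 13.1 and 16.0 FPKM in the mutants and 17.4 and 18.7 FPKM in the controls. Ndc80, which grips microtubules, had 10.9 and 12.7 FPKM in the mutants and 13.8 and 14.1 FPKM in the controls, and its partner Nuf2 gave a like pattern at -0.29 in the mandibular and -0.17 in the maxillary molar. Spc25, of the same complex, was the most weakly read member, with 4.13 and 6.19 FPKM in the mutants and 5.14 and 5.69 FPKM in the controls. Its mutant libraries lay on either side of its controls, at -0.26 in the mandibular and 0.10 in the maxillary molar.

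The spindle checkpoint holds anaphase back until every kinetochore is attached, and Cdc20 is both its target and the activator of the APC/C. All 4 genes of this role were below control in the mandibular molar by at least 0.32 (log2), with differences between -0.54 and -0.45. Bub1b (BubR1) had 12.7 and 16.8 FPKM in the mutant mandibular and maxillary libraries and 17.8 and 18.8 FPKM in the controls. Cdc20 (chromosome 4, 118105506 to 118109948, mm9) had 10.2 and 16.1 FPKM in the mutants and 15.3 and 15.5 FPKM in the controls. In Cdc20 the other 3 libraries thus lay close together and the mutant mandibular library stood below them, at 66.9% of its control, while the maxillary mutant stood at 104% of its control. The kinases Bub1 and Ttk (Mps1) differed by -0.45 each in the mandibular molar and by -0.10 and -0.15 in the maxillary molar. limma gave -0.24 ± 0.15 for Cdc20 (SE, adjusted p = 0.564), the widest error among the 41 genes.

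Kinesin motors of the spindle gave both large and small differences. Kif11 (Eg5), which pushes the spindle poles apart (chromosome 19, 37450893 to 37496349), had 17.99 and 23.4 FPKM in the mutant mandibular and maxillary libraries and 26.8 and 27.7 FPKM in the controls, a difference of -0.55 and -0.24. The chromosome-associated kinesin Kif4 differed by -0.55 and -0.21 and the microtubule depolymerase Kif2c by -0.59 and -0.22 in the same order of jaws. Kif20a, which acts in cytokinesis, differed by -0.38 and -0.14, and its locus overlaps Cdc23 by 1595 bases in the deposited tables, so reads of the pair could be shared. Kif23, the motor of the central spindle that recruits the cytokinesis machinery, had 13.8 and 12.5 FPKM in the mutants and 14.4 and 14.5 FPKM in the controls. It was the single gene of the 41 whose mutant mandibular value was above its mutant maxillary value, by 0.14. Kif22, a chromosome-arm kinesin, had 7.42 and 8.85 FPKM in the mutants and 7.78 and 8.39 FPKM in the controls, with no order by genotype. limma gave -0.39 ± 0.12 for Kif11, -0.13 ± 0.11 for Kif23 and 0.00 ± 0.11 for Kif22 (SE, adjusted p = 0.254, 0.675 and 0.993).

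Spindle-associated proteins had medians of -0.40 in the mandibular and -0.24 in the maxillary molar, the lowest maxillary median among the 9 roles. Tpx2, which activates Aurka on spindle microtubules, had 17.4 and 20.9 FPKM in the mutant mandibular and maxillary libraries and 26.5 and 25.3 FPKM in the controls. Nusap1, a microtubule bundling protein (chromosome 2, 119444034 to 119475896), had 14.97 and 15.8 FPKM in the mutants and 19.9 and 20.3 FPKM in the controls. Nusap1 was thus nearly equal between jaws in each genotype and lower in both mutants, with differences of -0.39 and -0.34. Its locus overlaps Oip5 by 208 bases, and Oip5 was at or under 1.10 FPKM. Prc1, the bundler of antiparallel microtubules, and Hmmr, a spindle protein and hyaluronan receptor, differed by -0.37 and -0.41 in the mandibular and by -0.21 each in the maxillary molar. Of the 4, all had an unadjusted limma p under 0.05 and none an adjusted p below 0.22 (Tpx2, -0.42 ± 0.12, SE).

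The 2 cytokinesis genes were both below control in both jaws. Anln (anillin), which links actin and myosin at the cleavage furrow, had 9.61 and 10.6 FPKM in the mutant mandibular and maxillary libraries and 12.3 and 11.99 FPKM in the controls. Ect2, the exchange factor that activates RhoA there, had 4.06 and 5.52 FPKM in the mutants and 5.62 and 6.09 FPKM in the controls. For Ect2 the mutant maxillary value was close to the control mandibular value, and neither gene passed limma (adjusted p = 0.414 for Anln and 0.432 for Ect2).

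Condensin and chromosome structure genes had the most negative mandibular median of the 9 roles, and all 7 were below control there by at least 0.32 (log2), with differences between -0.62 and -0.43 and a median of -0.53. All 7 also had both mutant libraries below both controls. Mki67, the Ki-67 antigen that coats mitotic chromosomes (chromosome 7, 142881471 to 142908062), had 41.2 and 47.8 FPKM in the mutant mandibular and maxillary libraries and 64.0 and 64.7 FPKM in the controls. The control libraries were nearly equal, and the mutants stood at 64.4% and 74.0% of them, the lowest share of the 41 genes in the maxillary molar. Mki67 also had the smallest limma p of the list, with -0.52 ± 0.11 (SE, adjusted p = 0.12). Top2a, the topoisomerase that untangles sister chromatids (chromosome 11, 98854261 to 98885503), had 45.4 and 57.6 FPKM in the mutants and 65.8 and 62.8 FPKM in the controls. Among condensin subunits, Ncaph had 12.4 and 15.9 FPKM in the mutants and 17.2 and 19.8 FPKM in the controls, and Ncapg had 4.43 and 5.38 FPKM in the mutants and 6.32 and 5.46 FPKM in the controls. The maxillary values of Ncapg differed by -0.02, with a counting standard error of 0.12. The remaining members, Smc2, Smc4 and Ncapd2, differed by between -0.56 and -0.46 in the mandibular molar and between -0.22 and -0.12 in the maxillary molar.

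The list holds 2 transcription factors, both known activators of the other members. Foxm1, the forkhead factor of the G2 programme (chromosome 6, 128313012 to 128325904), had 12.7 and 16.8 FPKM in the mutant mandibular and maxillary libraries and 19.3 and 19.2 FPKM in the controls. Mybl2 (B-Myb, chromosome 2, 162880371 to 162910423) had 3.85 and 5.02 FPKM in the mutants and 5.27 and 5.05 FPKM in the controls. Foxm1 was therefore lower in both mutants, with differences of -0.56 and -0.18, whereas Mybl2 differed by -0.37 in the mandibular and by -0.01 in the maxillary molar. limma gave -0.37 ± 0.13 for Foxm1 and -0.19 ± 0.13 for Mybl2 (SE, adjusted p = 0.304 and 0.594).

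Within the list the size of the difference varied from gene to gene. Across the 41 genes the mandibular and maxillary differences, which share no library, had a Pearson r of 0.44 and a Spearman rho of 0.42. Across all 10502 genes the same r was 0.33. More strongly expressed mitosis genes had the more negative differences, with a rho of -0.38 against log2 mean FPKM in the mandibular and -0.46 in the maxillary molar. Longer transcripts did as well, with a rho of -0.33 in the mandibular and -0.24 in the maxillary molar. These are descriptions across genes, which are not independent, and the pseudocount pulls weak genes towards 0. Of the 41 genes, 33 are listed with 1 transcript and 8 overlap the locus of another gene, and the tables give no strand. Among the 8, Ccna2 overlaps Exosc9 by 863 bases.

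Other mitotic genes, a list of 73 with none of the 41 in it, also had medians below 0 but were less uniform in the maxillary molar. Of these 70 were found and tested, and 69 of 70 were below control in the mandibular and 46 of 70 in the maxillary molar, with medians of -0.38 and -0.12. The other 24 of 70 were above control in the maxillary molar. Of all genes, 58.3% were below control in the mandibular and 46.8% in the maxillary molar. Both mutant libraries lay below both controls for 60% of this list, against 82.9% of the mitosis genes and 23.1% of all genes. limma called 0 of 70 for genotype, with 27 lower at an unadjusted p under 0.05 and 0 higher, against 6.51% and 6.68% of all genes. Ube2c, the E2 enzyme of the APC/C, was the strongest at 108 and 141 FPKM in the mutant mandibular and maxillary libraries, against 151 and 169 FPKM in the controls. Nek2, a centrosomal kinase, had 2.96 and 4.50 FPKM in the mutants and 6.22 and 5.65 FPKM in the controls. Spc24, the partner of Spc25, had 9.53 and 13.8 FPKM in the mutants and 16.9 and 16.96 FPKM in the controls, and Cdc25b, the phosphatase that activates Cdk1, had 2.20 and 3.16 FPKM against 4.18 and 4.30 FPKM. Kpna2, an importin, and Ube2s, another E2 enzyme, differed by -0.52 and -0.34 in the mandibular molar and by 0.09 and 0.14 in the maxillary molar. The single gene above control in the mandibular molar was Cenpm, at 0.14, named here after its value was seen.

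DNA replication genes, which act in S phase, were compared because they mark the same dividing cells at an earlier point of the cycle. In the mandibular molar 32 of 35 were below control, with a median of -0.29, whereas in the maxillary molar 14 of 35 were below and the median was 0.04. Among all genes 58.3% were below control in the mandibular and 46.8% in the maxillary molar. The maxillary share of the replication list, 40%, was thus near that of all genes. The mitosis genes had 38 of 41 below control in the maxillary molar, and this difference between the lists was not tested. Pcna, the sliding clamp of the replication fork, had 47.0 and 66.2 FPKM in the mutant mandibular and maxillary libraries and 60.4 and 63.3 FPKM in the controls. Rrm2, of ribonucleotide reductase, had 9.85 and 15.2 FPKM in the mutants and 16.5 and 17.1 FPKM in the controls, and Gins2 had 30.9 and 38.4 FPKM in the mutants and 37.0 and 35.2 FPKM in the controls. Uhrf1, Pola1 and Orc1 differed by -0.25, -0.51 and -0.45 in the mandibular molar and by 0.07, -0.07 and -0.23 in the maxillary molar. limma called 0 of 35 for genotype, with 2 lower at an unadjusted p under 0.05, which is 5.71% of the list against 6.51% of all genes.

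Genes that serve mitosis but are not known to be transcribed mainly in G2 and M were compared as well, and their medians lay nearer to 0. The cohesin and APC/C subunits, 22 genes, had medians of -0.15 in the mandibular and 0.07 in the maxillary molar, with 16 and 8 of 22 below control (72.7% and 36.4%). Of all genes, 58.3% and 46.8% were below control in the same order of jaws. Rad21, of cohesin, had 50.4 and 57.0 FPKM in the mutant mandibular and maxillary libraries and 59.5 and 62.9 FPKM in the controls. Smc1a, also of cohesin, had 24.5 and 29.2 FPKM in the mutants and 31.1 and 33.7 FPKM in the controls. The APC/C subunits Anapc13 and Anapc7 were above control in both jaws, by 0.13 and 0.34 in the mandibular and 0.40 and 0.14 in the maxillary molar, while Anapc5 differed by -0.14 and 0.12. The MuvB and DREAM subunits, 11 genes, had medians of -0.18 and -0.04, with 8 and 6 of 11 below control (72.7% and 54.5%). Among them E2f4 had 12.2 and 11.7 FPKM in the mutants and 11.6 and 11.4 FPKM in the controls, Tfdp1 had 21.8 and 24.4 FPKM against 24.9 and 26.1 FPKM, and Rbbp4 had 14.1 and 15.3 FPKM against 16.3 and 14.4 FPKM. The weaker subunits E2f5 and Tfdp2 differed by -0.33 and -0.40 in the mandibular and by -0.29 and -0.23 in the maxillary molar, and Lin9 by -0.02 and -0.31. limma called 0 genes of either list for genotype, with 1 of the 22 and 2 of the 11 lower at an unadjusted p under 0.05. By that rule 6.51% of all genes were lower.

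**Figure D4:**
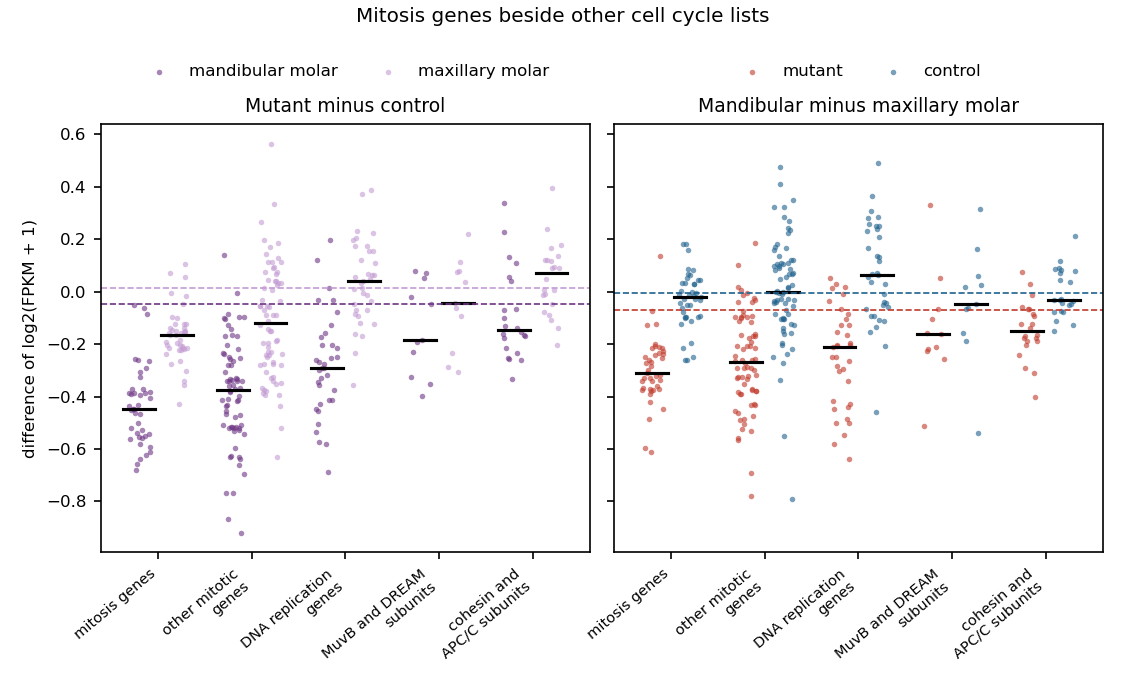
Differences of log2(FPKM + 1) for 5 gene lists, mutant minus control in each jaw (left) and mandibular minus maxillary molar in each genotype (right); each point is a gene, black bars are list medians and dashed lines are medians of all 10502 genes tested. The mitosis genes have a median of -0.45 in the mandibular molar and -0.16 in the maxillary molar, and the DNA replication genes -0.29 and 0.04.

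Markers of other cell types in the captures were measured beside these differences. Erythroid markers, with 6 of 8 tested, were above control in the mutant mandibular molar for all 6, with a median of 0.32, and the 8 summed to 505 and 432 FPKM in the mutant mandibular and maxillary libraries and 437 and 494 FPKM in the controls. Endothelial markers were below control in the mutant maxillary molar for all 10, with a median of -0.31, against -0.06 in the mandibular molar, and summed to 43.2 and 36.2 FPKM in the mutants and 46.3 and 51.6 FPKM in the controls. Pericyte and smooth muscle markers summed to 30.7 and 34.5 FPKM in the mutants and 47.6 and 51.6 FPKM in the controls. Rgs5, a pericyte marker, had 9.48 and 9.03 FPKM in the mutants and 25.05 and 31.8 FPKM in the controls, and limma called it lower (adjusted p = 0.0113). Without Rgs5 the other 7 summed to 21.3 and 25.4 FPKM in the mutants and 22.5 and 19.7 FPKM in the controls. Most of that sum was Pdgfrb, at 16.1 and 20.2 FPKM in the mutants. The weak pericyte marker Kcnj8 had 0.196 and 0.062 FPKM in the mutants and 1.29 and 0.391 FPKM in the controls. Abcc9 had 0.484 and 0.467 FPKM against 1.09 and 0.973 FPKM. Cspg4 differed by -0.04 and -0.28. Myh11 was above control, at 0.204 and 0.291 FPKM against 0.112 and 0.171 FPKM, and Cnn1 was at or under 0.031 FPKM. Pdgfrb and Acta2 differed by 0.04 and 0.00 in the mandibular and by 0.48 and 0.49 in the maxillary molar, and the median of the 4 tested was -0.02 in the mandibular and 0.10 in the maxillary molar. Dental epithelium markers summed to between 21.1 and 23.3 FPKM over the 4 libraries, with Shh at 0 in all but the control mandibular library. Macrophage markers summed to between 6.89 and 9.60 FPKM, muscle markers to between 3.04 and 3.57 FPKM, and Schwann and neural markers to between 1.34 and 2.68 FPKM, with Myod1 at 0 in all but the mutant mandibular library. The part of these cell types in the differences of the mitosis genes was not tested.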

How the data were processed

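RNA of laser-captured molar mesenchyme was amplified with a NuGEN Ovation kit and sequenced from Nextera libraries, per the labels' protocols. The submitters' processing notes name TopHat 1.4.1, Bowtie 0.12.7 and mm9. The version of Cufflinks, its strand setting and its handling of multiply mapping reads are not given in the sources used here. The authors' tables give FPKM and coverage for each RefSeq transcript, per the file headers, and each deposited coverage value is proportional to FPKM within its library.

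FPKM was summed per gene symbol. Values were compared on log2(FPKM + 1), a pseudocount of 1, for genes averaging 1 FPKM or more. limma 3.58.1 in R 4.3.3 was fitted to all genes with additive terms for genotype and jaw and an intensity trend, two-sided, with Benjamini-Hochberg adjustment over all genes tested. On simulated data, the share of false calls for genotype exceeded the threshold, so the adjusted p-values are approximate and can be too small. Approximate reads are coverage times length, divided by the 44.2 bases found for single-read genes, and cover counting error only. Gene coordinates are those of the tables (mm9, 1-based), and promoter sequences are from RefSeq on GRCm38.p6. The members, the 4 other gene lists and the 8 marker lists were chosen with earlier results of these data known. Genes named with every library were the 2 strongest of each role, the 5 most and 5 least negative differences of each jaw, and Mki67, Ccnb1, Cdk1, Foxm1 and Mybl2, 27 in all. From other lists the 3 strongest and the 3 with the largest coefficient were named. Alternatives were another pseudocount and filter, rescaling, other transcript choices, other model terms and leaving out each library.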

Additional observations from a re-analysis of the deposited data

Results flagged for a closer look

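The difference between jaws went in opposite directions in mutants and controls for Aurkb and Top2a, each time by more than 1.96 approximate counting standard errors. Aurkb, mandibular minus maxillary, was at -0.32 in the mutants and 0.18 in the controls. Top2a was at -0.34 in the mutants and 0.0654 in the controls. With 1 library per genotype and jaw the difference between these differences was not tested.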

How the results depend on the processing

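The 4 medians of the mitosis genes kept their direction under the 6 alternatives of pseudocount, filter, rescaling and transcript choice. They ranged between -0.50 and -0.39 for mutant minus control in the mandibular molar, -0.18 and -0.16 in the maxillary molar, -0.34 and -0.24 for mandibular minus maxillary molar in the mutants, and were -0.02 in the controls. The 41 of 41 below control in the mandibular molar became 40 of 41 after rescaling and with the strongest transcript of each gene alone. In the maxillary molar 38 of 41 became 37 of 41 with the strongest transcript alone. Kif23, Kif22 and Birc5 had mandibular differences of -0.05, -0.06 and -0.08 in the main analysis, with counting standard errors of 0.08, 0.14 and 0.11. limma's count of mitosis genes called for genotype was 0 in the main analysis and 2 at a mean of at least 5 FPKM, where 40 of the 41 were tested (Mybl2 was not) and Cenpe and Mki67 had adjusted p = 0.032 and 0.044. Under the other settings with all libraries kept it was 0. The count called for jaw was 0 in the main analysis and under every setting with all libraries kept. Calls are not given for fits that leave out a library, where a genotype or jaw has no replicate. Over all genes the 84 calls for genotype became 146 at 5 FPKM (of 5307 genes tested). They became 149 with transcripts of at least 0.3 kb and status OK, and 84 with a pseudocount of 0.1. The number was 38 without a trend, 15 after rescaling and 7 without a term for jaw. It was 0 without a filter or with the strongest transcript alone. No analysis paired by embryo was possible, because each genotype and jaw had 1 library of pooled material. The labels also give no replicate numbers. Jaw entered the model as a term.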
